A study of Mus musculus with 3 samples.

Results

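The small leucine-rich proteoglycans are secreted matrix proteins whose leucine-rich repeats bind collagen, and 10 of the 32285 genes in the tables belong to the family as it was defined here. No measured value entered the rule that set the members, though earlier results of these data were known when they were chosen. The members were taken by gene symbol: decorin (*Dcn*, ENSMUSG00000019929), biglycan (*Bgn*, ENSMUSG00000031375), asporin (*Aspn*, ENSMUSG00000021388), fibromodulin (*Fmod*, ENSMUSG00000041559), lumican (*Lum*, ENSMUSG00000036446), keratocan (*Kera*, ENSMUSG00000019932), *Prelp* (ENSMUSG00000041577), osteomodulin (*Omd*, ENSMUSG00000048368), osteoglycin (*Ogn*, ENSMUSG00000021390) and podocan (*Podn*, ENSMUSG00000028600). Each symbol matched 1 row, and all 10 members were detected.

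In tendon these proteins coat collagen fibrils and set how thick the fibrils grow and how they pack. Decorin, biglycan and asporin form the decorin-like class, in which decorin and biglycan carry chondroitin or dermatan sulfate chains while asporin lacks such a chain and has a stretch of aspartates. Fibromodulin, lumican, keratocan, osteomodulin and *Prelp* form the fibromodulin-like class, most of which carry keratan sulfate or sulfated tyrosines. Osteoglycin belongs to a further class of shorter proteins, and podocan to a more distant branch.

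The study asked whether loss of Scleraxis-lineage cells in young mice alters the flexor digitorum longus (FDL) tendon in the way that natural aging does. It used imaging, mechanical tests, proteomics and droplet single-cell RNA sequencing. By proteomics the paper reports less keratocan protein in whole tendon after depletion and with aging. Its aged tendons for that comparison were younger than 21 months. Only the single-cell RNA counts were analysed here. There was 1 library per group, each made from 16 pooled FDL tendons of both sexes, and the labels give the strain of all samples as C57BL/6J. The 6 M WT library came from Scx-Cre-; DTR F/+ mice, which carry the conditional diphtheria toxin receptor (DTR) without Cre. The 6 M DTR library came from Scx-Cre+; DTR F/+ littermates. Both groups received 5 daily injections of diphtheria toxin (DT), so the controls also saw the toxin. Their labels give an age of 3 months, while the study's methods give toxin at 3 months and harvest at 6 months. The 21 M B6 library came from C57/Bl6 mice aged 21 months, which had no toxin and no transgene. Scx-Cre is not inducible and acts in any cell that has expressed Scleraxis, not in tenocytes alone. Tendons were digested for 120 min for the 6 M WT library and for 90 min for the others, so digestion time and group cannot be told apart wherever 6 M WT enters a comparison. With 1 library per group no difference between groups has a replicate check and no test was made. The intervals below are exact 95% intervals that cover counting error only.

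The files held 15536, 16099 and 12273 cell barcodes (values without a name are given here and throughout in the order WT, DTR and B6), with 148149903, 123918145 and 92707026 unique molecular identifiers (UMIs). After the filters on genes and mitochondrial UMIs, 8357, 6554 and 4798 cells were kept at a median of 13008, 12328 and 12914 UMIs. The mitochondrial limit of 10% was exceeded by 27.6%, 43.1% and 56.5% of barcodes, so the kept share was lowest in the aged library. Between 61 and 76 barcodes were shared by any pair of libraries. Cells were placed in 8 classes by UMIs of marker genes, none of them a family member. Of 18 marker genes kept out of the gates, 18 were highest in their own class in every library, among them *Comp* and *Coch* for tenocytes and *Cd248* and *Ly6a* for epitenon cells, the cells of the tendon surface. Tenocytes made up 61.8%, 41.1% and 17.3% of kept cells (5168, 2693 and 829 cells), and epitenon cells 11.4%, 12.7% and 47.0% (953, 832 and 2254 cells). Levels are given as CPM, the gene's UMI counts per 1000000 UMIs of a class in a library. Each transcript is counted once at its 3′ end, so levels of different genes were compared without division by length.

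Family transcripts took nearly the same share of tenocyte RNA in the 3 libraries. All members together gave 43402, 44164 and 42549 CPM. Epitenon cells held 15688.5, 16523 and 14459 CPM, and mural cells, the pericytes and smooth muscle cells of vessel walls, 1444, 2484 and 916 CPM. Decorin made up most of the tenocyte total, at 77.3%, 72.7% and 73.2% of family UMIs, followed by fibromodulin at 14.5%, 13.8% and 16.7%. The makeup of epitenon cells was different, with decorin at 67.3%, 57.9% and 74.9%, asporin at 16.1%, 27.3% and 12.0%, and biglycan at 8.15%, 6.90% and 6.61%. In mural cells asporin made up 34.2%, 38.3% and 31.8%, decorin 37.6%, 36.0% and 18.3% and biglycan 16.5%, 13.3% and 34.5%. The mural *Dcn* level was 0.637, 2.30 and 0.309 times that of macrophages, so it was below the macrophage level in the control and the aged library. T cells, which like macrophages should lack the gene, had 585, 536 and 107 CPM where mural cells had 542, 894 and 168 CPM. How much of the mural *Dcn* was free RNA could not be told.

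**Figure D1:**
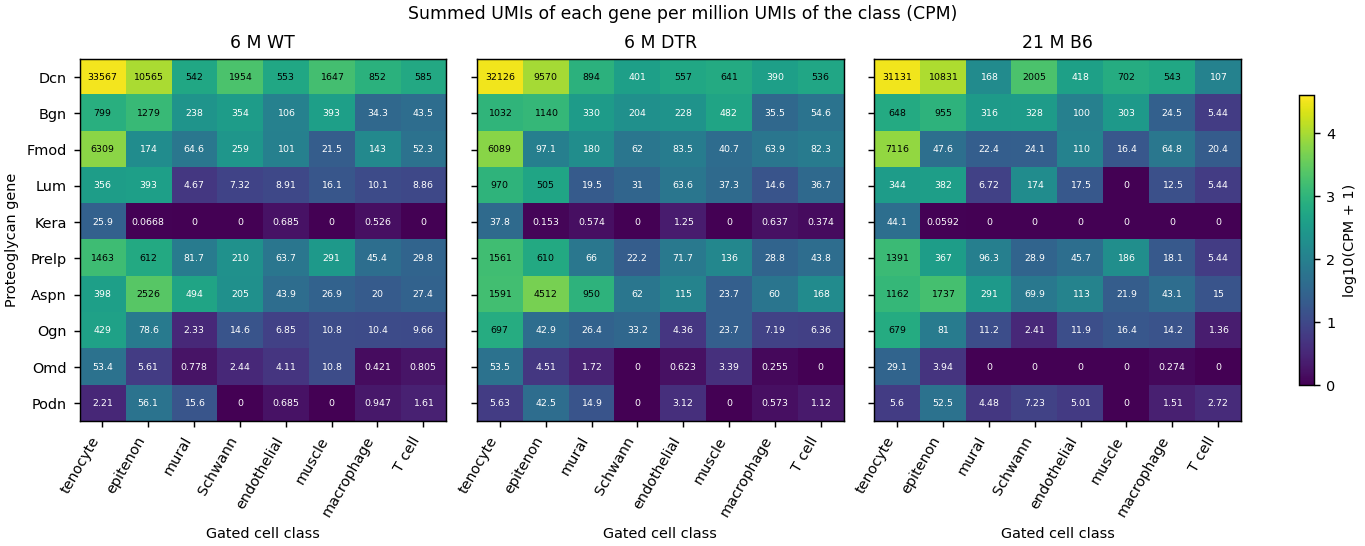
Level of the 10 family genes in 8 cell classes of the 3 libraries. Rows are genes, columns are cell classes within each library, colour is log10(CPM + 1) and the printed value is CPM; *Dcn* was highest in tenocytes at 33567, 32126 and 31131 CPM, and *Aspn* was highest in epitenon cells at 2526, 4512 and 1737 CPM.

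Decorin, which caps the lateral growth of collagen fibrils, was highest in tenocytes in every library, at 33567, 32126 and 31131 CPM. Epitenon cells followed at 10565, 9570 and 10831 CPM. Macrophages, which should lack the gene, still showed 852, 390 and 543 CPM of *Dcn*, a measure of free RNA in the droplets. Levels in Schwann cells, muscle cells, T cells, endothelial cells and mural cells lay between 107 and 2005 CPM, and several neighbours in that part of the order had overlapping intervals.

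Fibromodulin, keratocan, osteomodulin and osteoglycin were tenocyte genes in these libraries. *Fmod*, which binds collagen I and guides its cross-linking, stood at 6309, 6089 and 7116 CPM in tenocytes against 174, 97.1 and 47.6 CPM in epitenon cells. The epitenon level was 1.21, 1.52 and 0.734 times that of macrophages, so by that measure it was near free RNA and no difference is read from it. T cells had 52.3, 82.3 and 20.4 CPM of *Fmod*, less than epitenon cells. *Kera*, the keratan sulfate proteoglycan known best from the cornea, had 25.9, 37.8 and 44.1 CPM in tenocytes and only 1, 2 and 2 UMIs in all epitenon cells of a library. *Omd*, known from bone, had 53.4, 53.5 and 29.1 CPM in tenocytes against 5.61, 4.51 and 3.94 CPM in epitenon cells. *Ogn* had 429, 697 and 679 CPM in tenocytes and 78.6, 42.9 and 81.0 CPM in epitenon cells, the latter 7.54, 5.97 and 5.69 times the macrophage level.

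Asporin and podocan were epitenon genes. *Aspn* was highest in epitenon cells in every library, at 2526, 4512 and 1737 CPM, which was 635%, 284% and 150% of its tenocyte level and 126, 75.1 and 40.3 times its macrophage level. Mural cells ranked above tenocytes for *Aspn* in 6 M WT (494 against 398 CPM) and below them in the other libraries (950 against 1591 CPM in 6 M DTR, 291 against 1162 CPM in 21 M B6). *Podn* was low everywhere, with 56.1, 42.5 and 52.5 CPM in epitenon cells and 2.21, 5.63 and 5.60 CPM in tenocytes.

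Biglycan, lumican and *Prelp* were shared between both classes. *Bgn*, the closest relative of decorin, had 1279, 1140 and 955 CPM in epitenon cells and 799, 1032 and 648 CPM in tenocytes. Per 100 *Dcn* UMIs there were 2.38, 3.21 and 2.08 *Bgn* UMIs in tenocytes and 12.1, 11.9 and 8.82 in epitenon cells, so the balance of this pair differed between these classes more than between the libraries. *Prelp*, which ties matrix to basement membrane through heparan sulfate, had 1463, 1561 and 1391 CPM in tenocytes and 612, 610 and 367 CPM in epitenon cells. *Lum*, which shares the collagen-binding face of fibromodulin, was slightly higher in epitenon cells than in tenocytes in 6 M WT (393 against 356 CPM) and 21 M B6 (382 against 344 CPM), and lower in 6 M DTR (505 against 970 CPM).

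**Figure D2:**
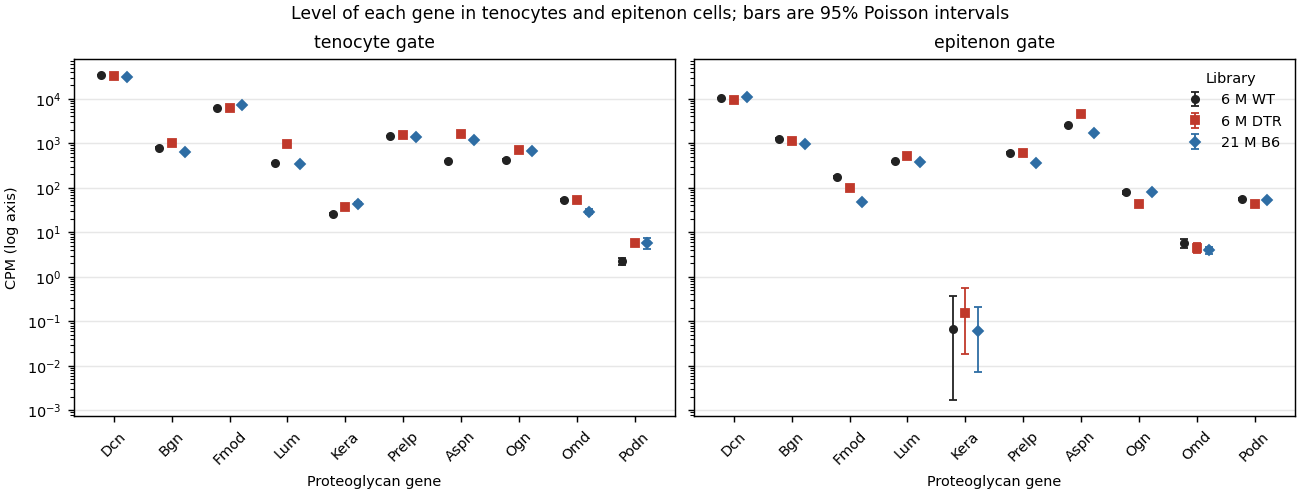
Level of each family gene in tenocytes and epitenon cells of the 3 libraries. The vertical axis is CPM on a log scale, points are libraries and bars are exact 95% Poisson intervals; the tenocyte points of *Aspn* (398, 1591 and 1162 CPM) and *Lum* (356, 970 and 344 CPM) are spread apart, while those of *Dcn* and *Prelp* lie together.

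The classes that held the family's UMIs differed between the libraries. Tenocytes held 86.7%, 79.6% and 39.6% of all *Dcn* UMIs of kept cells, and epitenon cells 5.82%, 8.64% and 46.5%, against 61.8%, 41.8% and 15.2% and 13.2%, 15.2% and 51.4% of UMIs of all genes. *Fmod* stayed a tenocyte transcript, with 95.3%, 92.8% and 85.8% of its UMIs in tenocytes, and *Kera* likewise with 94.9%, 98.1% and 92.8%. For *Lum* the epitenon share was 16.6%, 13.1% and 70.9%, and for *Aspn* 44.1%, 37.2% and 68.0%, so most UMIs of both genes came from epitenon cells in the aged library. Over all kept cells the level of *Dcn* was 23922, 16849 and 11951 CPM and that of *Fmod* 4091, 2742 and 1261 CPM, although neither differed by 1.5-fold within tenocytes. *Kera* over all kept cells was at 16.9, 16.1 and 7.23 CPM, under the 20 CPM needed for a comparison. At this whole-library level, fewer tenocytes and less RNA per tenocyte cannot be told apart, and the gated levels below compare cells of the same gated class. Marker levels within a gate still differed. In the epitenon gate *Pi16*, *Efemp1* and *Inmt* were highest in 21 M B6, *Inmt* at 33.5, 31.8 and 177 CPM. *Gdf10* was also highest there but close to 6 M WT, at 65.3, 36.9 and 67.5 CPM. *Krtdap* and *Ccn3* were lower by CPM in 21 M B6 than in 6 M WT. *Dpp4* (71.16 against 74.95 CPM) and *Clec3b* (1150 against 1317 CPM) were only slightly lower. Their differences were smaller than that of the typical gene, at a median log2 ratio of -0.26. The part of such shifts in the ratios was not tested.

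In the tenocytes present after depletion of Scleraxis-lineage cells, decorin and fibromodulin levels were close to those of 6 M WT, while asporin and lumican were far higher. A gene was compared where 1 of the libraries reached 20 CPM, and it was called higher or lower past 1.5-fold. Of the 9 members compared in tenocytes of 6 M DTR against 6 M WT, 3 were higher, where 5.7% of 5473 genes were higher, and 0 were lower, where 5.76% were lower. The members' median log2 ratio was 0.37, against 0.01 over all genes compared. *Podn* was under 20 CPM in tenocytes of every library and was not compared.

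Asporin, which competes with decorin for collagen and binds TGF-beta, stood at 398 CPM in tenocytes of 6 M WT against 1591 CPM in those of 6 M DTR. The ratio was 4.00 (3.94 to 4.06), the place of *Aspn* being 25 from the top of 5473 genes. *Lum* had 356 and 970 CPM, a ratio of 2.72 (2.68 to 2.77) at place 44. *Ogn* had 429 and 697 CPM, a ratio of 1.63 (1.60 to 1.65) at place 235. These 3 members stood above the upper 1.5-fold line, and *Kera* at 1.46 (1.36 to 1.57) and *Bgn* at 1.29 (1.27 to 1.31) stood below it. *Dcn* at 0.957, *Fmod* at 0.965, *Omd* at 1.00 and *Prelp* at 1.07 were within 10% of equality.

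In tenocytes of 21 M B6 against 6 M WT asporin was again higher, and osteomodulin was lower. Of 9 members, 3 were higher, where 6.62% of 5288 genes were higher, and 1 was lower, where 12.7% were lower. The median over all genes compared was -0.26 on the log2 scale, and that of the members -0.05, so a member at equal CPM stood above the typical gene; with TMM scaling the median over all genes was -0.02, and 10.51% of genes were higher and 3.63% lower. *Aspn* had 398 and 1162 CPM, a ratio of 2.92 (2.86 to 2.98) at place 60. *Kera* had 25.9 and 44.1 CPM, a ratio of 1.70 (1.53 to 1.89), and *Ogn* had 429 and 679 CPM, a ratio of 1.58 (1.54 to 1.63). *Omd* had 53.4 and 29.1 CPM, a ratio of 0.545 (0.482 to 0.614). The *Lum* ratio was 0.965, so the high *Lum* level of 6 M DTR tenocytes was not seen in the aged library. *Dcn* at 0.927, *Prelp* at 0.951, *Bgn* at 0.811 and *Fmod* at 1.13 did not pass 1.5-fold. The median mitochondrial share of kept tenocytes was 2.77%, 2.86% and 5.60%, highest in the aged library, and its part in these ratios was not tested. With a mitochondrial limit of 5% the *Aspn* ratio stayed past 1.5-fold and that of *Kera* was 1.08.

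Between the depleted and the aged library, 3 of 9 members were lower in 21 M B6 tenocytes, where 23.4% of 5449 genes were lower, and 0 were higher, where 9.32% were higher. These libraries shared a digestion time. *Lum* had 344 CPM in 21 M B6 against 970 CPM, a ratio of 0.354 (0.342 to 0.367). *Omd* at 0.544 and *Bgn* at 0.628 were also lower, with a median over all genes compared of -0.29 (log2) and 0.08 with TMM scaling, where 19.3% of genes were higher and 6.54% lower. With TMM scaling only the *Lum* call was left, at 1 call of 9. *Aspn* at 0.730, *Ogn* at 0.974, *Kera* at 1.17 and *Fmod* at 1.17 did not pass 1.5-fold. The comparisons with 6 M WT share that library, so their values for the members are given side by side and not as support for each other.

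**Figure D3:**
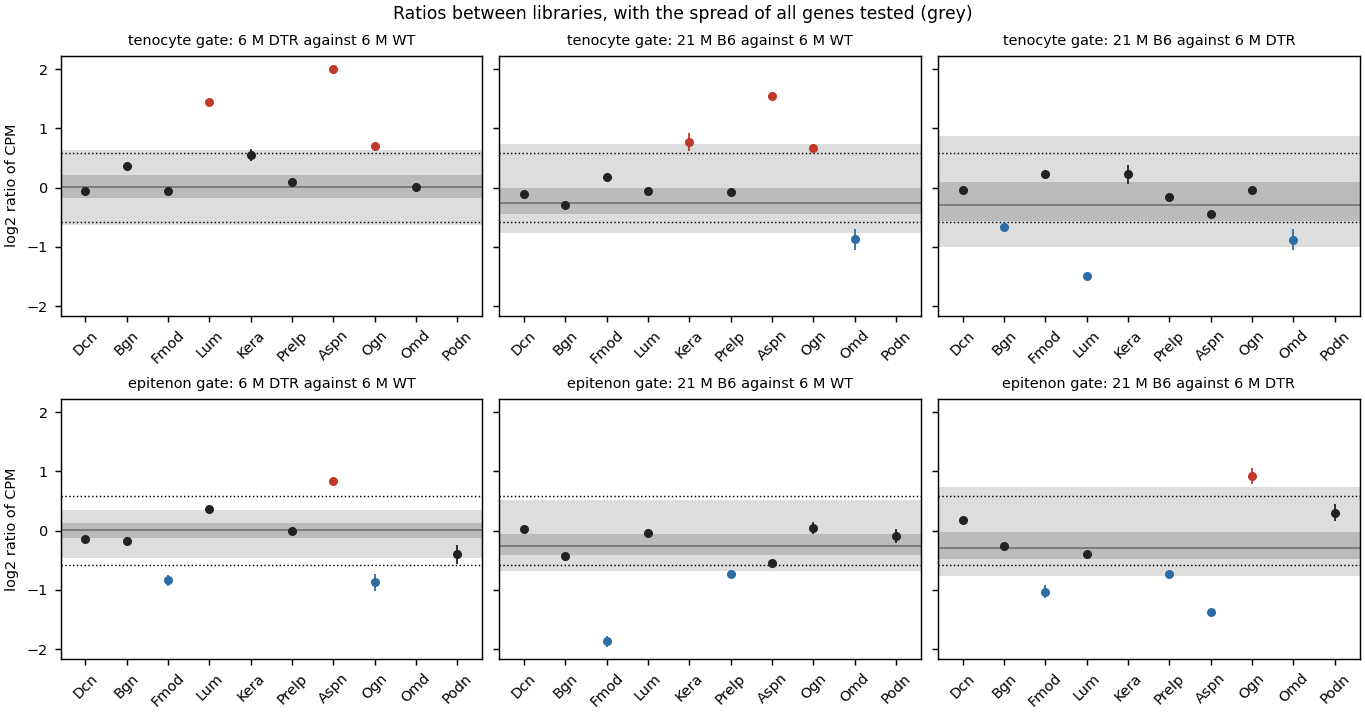
Ratio of levels between libraries for each family gene that was compared, in tenocytes and epitenon cells. The vertical axis is the log2 ratio of CPM with its 95% interval, dark and light grey bands span the middle of all genes compared (25th to 75th and 5th to 95th percentile), dotted lines mark 1.5-fold and members past it are red when higher and blue when lower; *Aspn*, *Lum* and *Ogn* lie above the light band in tenocytes of 6 M DTR against 6 M WT at ratios of 4.00, 2.72 and 1.63.

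The genes *Aspn*, *Omd* and *Ogn* lie next to each other on chromosome 13, in the order *Ecm2*, *Aspn*, *Omd*, *Ogn*, and they did not move as a block. In 6 M DTR tenocytes *Aspn* and *Ogn* were higher than in 6 M WT at 4.00 and 1.63, while *Omd* between them was at 1.00. In 21 M B6 tenocytes *Omd* was lower at 0.545 and its neighbours were higher at 2.92 and 1.58. *Dcn*, *Lum* and *Kera* are also neighbours, on chromosome 10, and of these *Lum* passed 1.5-fold in 6 M DTR tenocytes at 2.72, while *Dcn* at 0.957 did not and *Kera* at 1.46 did so only within each sex and in cells without *Coch* UMIs. The start regions of the 3 chromosome 13 neighbours are printed because they are adjacent genes with different levels. Each spans 300 bases of RefSeq sequence on build GRCm38.p6, 250 before and 50 from the start site on, read on the plus strand. Capitals mark matches to CANNTG, the E-box letters that Scleraxis and other basic helix-loop-helix factors bind:
Aspn, chr13:49544193-49544492: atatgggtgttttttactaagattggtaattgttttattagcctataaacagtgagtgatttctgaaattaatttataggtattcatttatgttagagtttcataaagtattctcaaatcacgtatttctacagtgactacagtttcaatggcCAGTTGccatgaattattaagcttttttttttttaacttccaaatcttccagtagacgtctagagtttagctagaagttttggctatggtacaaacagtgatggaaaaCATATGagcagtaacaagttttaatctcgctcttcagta
Omd, chr13:49582212-49582511: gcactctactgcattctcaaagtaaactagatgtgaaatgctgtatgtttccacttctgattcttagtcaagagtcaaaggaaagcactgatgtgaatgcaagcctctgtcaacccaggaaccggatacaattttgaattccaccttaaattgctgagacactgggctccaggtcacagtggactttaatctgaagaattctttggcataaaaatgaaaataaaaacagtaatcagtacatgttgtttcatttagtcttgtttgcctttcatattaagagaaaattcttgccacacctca
Ogn, chr13:49607765-49608064: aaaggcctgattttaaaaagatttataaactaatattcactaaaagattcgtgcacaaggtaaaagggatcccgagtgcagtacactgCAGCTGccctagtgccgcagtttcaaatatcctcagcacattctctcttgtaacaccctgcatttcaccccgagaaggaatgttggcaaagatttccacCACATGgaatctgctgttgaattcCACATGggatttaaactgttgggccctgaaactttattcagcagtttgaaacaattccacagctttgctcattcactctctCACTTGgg

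CANNTG reads the same on both strands and was found 2 times in the *Aspn* region, 0 times in the *Omd* region and 4 times in the *Ogn* region. Of 32851 RefSeq start regions of this length, 72.3% held at least 1 match, with a mean of 1.39. The letters TATAAA, searched on both strands, occurred 2 times in *Aspn*, 2 times in *Ogn* and 0 times in *Omd*, and in 13.6% of all regions. Among the other members with an entry, *Bgn*, *Fmod* and *Prelp* held 1 CANNTG match each, *Kera* held 0, and the regions of *Podn* held 3 and 1. In all, 8 of 10 members had an entry, all but *Dcn* and *Lum*. A match is a description of letters in this window, and an absence says only that these letters are not in it.

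Tenocytes were split in several ways, chosen after the data had been seen in the case of the splits by *Coch* and by epitenon markers, to see whether the tenocyte levels differed between kinds of cell. Cells with *Xist* and no Y-linked UMI were taken as female and the reverse as male, which gave 61.6%, 33.5% and 37.9% female and 23.6%, 46.7% and 34.7% male tenocytes. *Aspn* was higher in male than in female tenocytes of every library, with 306, 1118 and 936 CPM in female and 628, 1934 and 1628 CPM in male cells. Its ratio for 6 M DTR against 6 M WT was 3.65 in female and 3.08 in male cells, and for 21 M B6 against 6 M WT 3.06 and 2.60. *Lum* had 399, 812 and 479 CPM in female and 259, 1104 and 207 CPM in male tenocytes, so the ratio for 6 M DTR against 6 M WT was 2.03 in female and 4.27 in male cells.

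The osteoglycin and keratocan calls changed with sex. *Ogn* had 353, 488 and 717 CPM in female and 605, 817 and 636 CPM in male tenocytes. For 6 M DTR against 6 M WT the *Ogn* ratio was 1.38 in female and 1.35 in male cells, each under 1.5-fold, while the ratio over all tenocytes was 1.63 with more male cells in the 6 M DTR library. For 21 M B6 against 6 M WT it was 2.03 in female and 1.05 in male cells. *Kera* had 30.0, 47.2 and 80.8 CPM in female and 15.8, 33.0 and 18.6 CPM in male tenocytes, so its aged level stood apart in female cells. Its ratio for 6 M DTR against 6 M WT was 1.57 in female and 2.09 in male cells, each past 1.5-fold, where the ratio over all tenocytes was 1.46. The *Kera* ratio for 21 M B6 against 6 M WT was 2.70 in female cells, while male cells of both libraries were under 20 CPM and were not compared. The *Kera* ratio for 21 M B6 against 6 M DTR was 1.71 in female and 0.563 in male cells. In both sexes *Omd* was lower in the 21 M B6 library, at ratios of 0.644 and 0.407 to 6 M WT.

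*Coch*, which encodes a secreted matrix protein, was detected with at least 1 UMI in 92.4%, 38.8% and 68.4% of tenocytes. *Aspn* was higher in tenocytes without a *Coch* UMI, at 959, 2111 and 1766 CPM, than in those with 1 or more, at 357, 852 and 875 CPM. Both kinds of tenocyte gave *Aspn* ratios to 6 M WT past 1.5-fold. No thinning was done for this split, so it depends on depth and on free *Coch* RNA. Outside tenocytes *Coch* reached at most 213, 22.2 and 129 CPM in a class, so tenocytes of the same kind need not be alike across libraries. The ratio for 6 M DTR was 2.20 without and 2.38 with *Coch* UMIs, and for 21 M B6 it was 1.84 and 2.45. *Lum* gave 3.54 and 1.82 for 6 M DTR against 6 M WT, and *Ogn* 1.83 and 1.43. Tenocytes with 10 or more *Coch* UMIs made up 73.2%, 21.8% and 49.6% of the class, and their *Aspn* level was 229, 408 and 629 CPM. Their *Lum* level was 345, 457 and 249 CPM, so that of 6 M DTR was less than 1.5-fold above 6 M WT.

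Epitenon cells express more asporin than tenocytes, so markers of that class were followed in the tenocyte gate. The summed level of 8 epitenon markers in tenocytes was 963, 682 and 1009 CPM. Of this *Clec3b* gave 909, 606 and 930 CPM, so the order of the sums was that of *Clec3b*. Not every marker had that order, *Dpp4* being at 6.48, 9.61 and 23.7 CPM in tenocytes, lowest in 6 M WT. Tenocytes with no UMI of any of these markers made up 21.0%, 29.3% and 19.8% of the class. Their *Aspn* level was 106, 1420 and 543 CPM, with ratios to 6 M WT of 13.4 and 5.14, both larger than over all tenocytes. *Clec3b* was at 1317, 1670 and 1150 CPM in epitenon cells, so this split mainly followed a gene that was high in both classes. Cells were not thinned for it, so it also depends on depth. It cannot show how much epitenon RNA the tenocyte gate held, and the part of such RNA in the *Aspn* ratios was not tested. *Lum* there was 451, 1294 and 452 CPM and *Ogn* 429, 852 and 756 CPM. Summed mural markers in tenocytes were 237, 211 and 187 CPM, of which *Mylk* gave 117, 81.5 and 129 CPM. Tenocytes had more *Mylk* than any other class but mural cells, so no order is read from these sums.

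**Figure D4:**
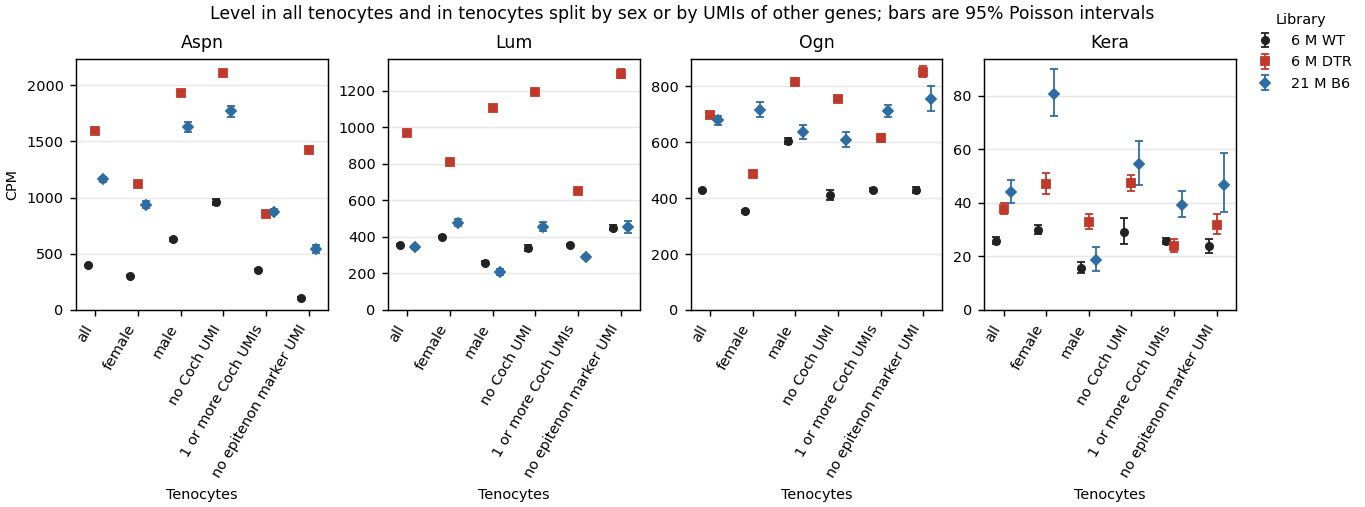
Level of *Aspn*, *Lum*, *Ogn* and *Kera* in all tenocytes and in tenocytes split by sex, by *Coch* UMIs and by epitenon markers. The vertical axes are CPM from 0, points are libraries and bars are exact 95% Poisson intervals; *Aspn* of 6 M WT was the lowest of the 3 libraries in every split, and *Kera* of 21 M B6 reached 80.8 CPM in female cells against 18.6 CPM in male cells.

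Shares of tenocytes with a transcript were compared after each cell was thinned to 2000 UMIs, which left out 9, 5 and 1 cells of all classes. *Aspn* was then found in 23.9%, 60.3% and 55.1% of tenocytes, and in 45.3%, 79.2% and 77.2% before thinning. Macrophages at the same depth gave 2.98%, 7.03% and 4.62%, so the tenocyte shares were above free RNA. *Lum* was found in 32.4%, 60.04% and 35.6% of tenocytes, against 1.93%, 2.88% and 2.01% of macrophages. Both genes were thus found in more tenocytes of 6 M DTR than of 6 M WT, and the *Aspn* share of 21 M B6 was also above that of 6 M WT while its *Lum* share was close to it. *Ogn* was found in 43.7%, 53.0% and 57.9% of tenocytes, and no order is read between the latter values, since the CPM levels had the reverse order. *Dcn* was found in 100% of tenocytes in all libraries and *Fmod* in 93.5%, 91.6% and 97.0%. *Kera* was found in 3.31%, 4.72% and 5.19% and *Omd* in 7.89%, 7.87% and 4.35%, so these were transcripts of few tenocytes at this depth.

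At 2000 UMIs per cell the 10th percentile, median and 90th percentile of *Dcn* were 29, 64 and 108 UMIs in 6 M WT, 25, 61 and 109 in 6 M DTR and 30, 59 and 96 in 21 M B6. *Fmod* had 1, 11 and 28 UMIs in 6 M WT, 1, 9 and 28 in 6 M DTR and 3, 12 and 26 in 21 M B6. *Aspn* had 0, 0 and 2 UMIs in 6 M WT, 0, 1 and 9 in 6 M DTR and 0, 1 and 5 in 21 M B6, so its upper tail was longest in the depleted library. Across tenocytes of a library *Dcn* and *Fmod* had Spearman correlations of 0.372, 0.271 and 0.298 over 5168, 2693 and 828 cells thinned to the same depth. Cells of a library share its droplets and free RNA, and these values are descriptions.

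**Figure D5:**
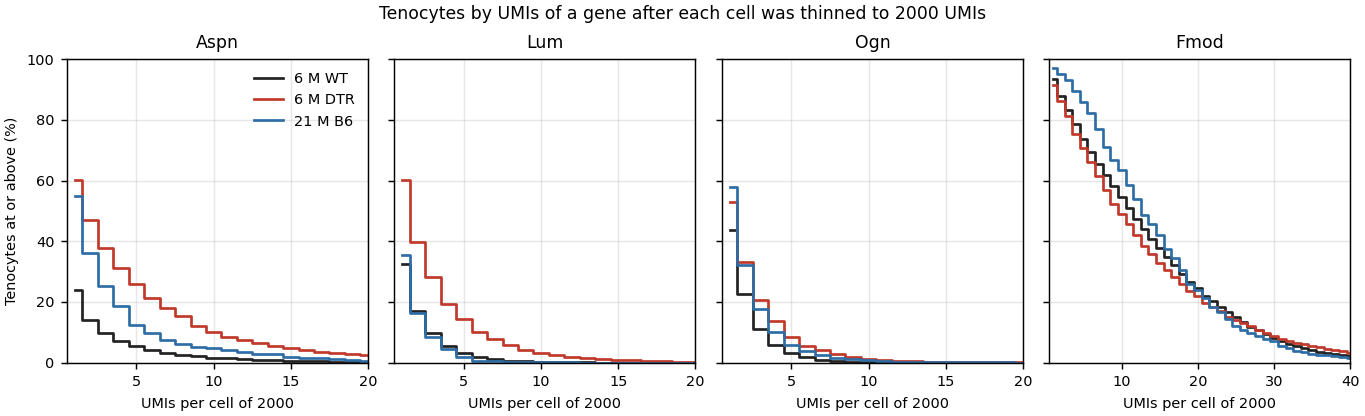
Share of tenocytes with at least a given number of UMIs of *Aspn*, *Lum*, *Ogn* and *Fmod* after thinning each cell to 2000 UMIs. The horizontal axis is the number of UMIs, the vertical axis the percent of tenocytes and lines are libraries; at 1 UMI the *Aspn* lines stand at 23.9%, 60.3% and 55.1% and the *Fmod* lines at 93.5%, 91.6% and 97.0%.

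In epitenon cells asporin was again the member that stood out in the depleted library. Of 8 members compared for 6 M DTR against 6 M WT, 1 was higher, where 1.25% of 5702 genes were higher, and 2 were lower, where 3.09% were lower. *Aspn* had 2526 and 4512 CPM, a ratio of 1.79 (1.76 to 1.81) at place 23 of 5702. It was 2.21 in female and 1.29 in male cells. The lower members were *Fmod*, which was near the macrophage level, and *Ogn* with 78.6 and 42.9 CPM, a ratio of 0.546 (0.493 to 0.605) that was 0.765 in female and 0.348 in male cells. The summed level of 7 tenocyte markers in epitenon cells was 124, 90.7 and 77.0 CPM, highest in 6 M WT, and its part in the *Ogn* ratio was not tested. *Lum* at 1.29, *Prelp* at 0.997, *Dcn* at 0.906, *Bgn* at 0.891 and *Podn* at 0.758 did not pass 1.5-fold, and the members' median was -0.15 against 0.01 over all genes compared.

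Asporin was lower in the aged than in the depleted epitenon cells, and the *Prelp* call depended on scaling, gate and sex. Of 8 members compared for 21 M B6 against 6 M WT, 0 were higher, where 4.42% of 5637 genes were higher, and 2 were lower, where 8.64% were lower. These were *Fmod*, near the macrophage level, and *Prelp* with 612 and 367 CPM, a ratio of 0.600 (0.584 to 0.617) that was 0.726 with TMM scaling. *Aspn* at 0.688 did not pass 1.5-fold, while *Dcn* at 1.03 and *Lum* at 0.974 were close to equality. The members' median was -0.26, the same as that over all genes compared. With TMM scaling 8.76% of genes were higher and 1.97% lower.
For 21 M B6 against 6 M DTR, 1 of 8 members was higher, where 6.65% of 5683 genes were higher, and 3 were lower, where 13.7% were lower (13.2% and 2.59% of genes with TMM scaling). *Aspn* had 1737 CPM in 21 M B6 against 4512 CPM, a ratio of 0.385 (0.381 to 0.389). *Prelp* was at 0.602, which was 0.740 with TMM scaling, 0.700 in male cells and under 1.5-fold with a gate without *Ccn3* or *Clec3b*. The third lower member was *Fmod*, which was near the macrophage level and from which no difference is read. *Ogn* was higher at 1.89 (1.72 to 2.07). By CPM *Aspn* thus had its highest level in 6 M DTR in both classes. The 21 M B6 level was above that of 6 M WT in tenocytes and below it in epitenon cells. The ratios of 21 M B6 to 6 M DTR in tenocytes (0.730) and to 6 M WT in epitenon cells (0.688) did not pass 1.5-fold. In tenocytes with *Coch* UMIs the order of 6 M DTR and 21 M B6 was the other way, at 852 and 875 CPM. With 10 or more *Coch* UMIs the *Aspn* levels of these libraries were 408 and 629 CPM, more than 1.5-fold apart.

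Mural cells were a further site of asporin, at 24.7, 15.8 and 6.75 times the macrophage level, and had biglycan at 6.94, 9.28 and 12.9 times. T cells had 27.4, 168 and 15.0 CPM of *Aspn* where mural cells had 494, 950 and 291 CPM, so the fold depends on the class taken as free RNA. *Bgn* was not particular to mural cells, at 238, 330 and 316 CPM. Muscle cells had 393, 482 and 303 CPM of it and Schwann cells 354, 204 and 328 CPM. *Aspn* was found in 56.9%, 76.0% and 34.9% of mural cells at 2000 UMIs, from 146, 196 and 43 cells. *Lum* in mural cells rested on 6, 34 and 3 UMIs, so a mural *Lum* level could not be told from free RNA.

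Genes that act with the family were followed by lists, whose counts are read against the share of all genes past 1.5-fold in the same comparison. With TMM scaling, chosen for the lists after the data had been seen, several calls changed and are named. Of 8 other leucine-rich proteoglycans, 2 reached the level needed in tenocytes, *Chad* and *Ecm2*. *Chad*, chondroadherin, had 2905, 2834 and 1680 CPM in tenocytes and is itself a marker in the tenocyte gate. Its ratio for 21 M B6 was 0.578 against 6 M WT and 0.593 against 6 M DTR, and neither passed with TMM scaling. *Ecm2*, the chromosome 13 neighbour of *Aspn*, had 310, 423 and 189 CPM in epitenon cells, with a ratio for 21 M B6 of 0.610 against 6 M WT, which did not pass with TMM scaling, and 0.447 against 6 M DTR. *Chad* in epitenon cells was at 30.2, 12.6 and 6.67 CPM.

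Of 20 enzymes that build the linker and the chondroitin or dermatan sulfate chains, 11 were compared in tenocytes of 6 M DTR against 6 M WT, with 2 higher and 1 lower, where 5.7% and 5.76% of all genes were. *Chpf*, a chain polymerizing factor, was higher at 2.02 and *Chst12*, a sulfotransferase, at 1.64, while *Chsy3*, a chondroitin synthase, was lower at 0.633. In 21 M B6 against 6 M WT 0 of 10 were higher and 4 were lower, *Xylt1* at 0.535, *Chsy3* at 0.572, *B3gat3* at 0.602 and *Fam20b* at 0.614, where 12.7% of all genes were lower. With TMM scaling *Xylt1* alone was lower, at 0.627, and *Ust* was higher at 1.52. *Xylt1* places the sugar that starts the chain. Against 6 M DTR 7 of 11 were lower, from *Xylt1* at 0.368 to *Csgalnact2* at 0.609, where 23.4% of all genes were, and the list's median was -0.75 where that of all genes was -0.29. With TMM scaling 3 were lower, *Xylt1* at 0.463, *Chpf* at 0.635 and *Chst12* at 0.647. In epitenon cells 0 of 11 passed 1.5-fold in 6 M DTR against 6 M WT, beside 1.25% of all genes higher and 3.09% lower. For 21 M B6, 2 were lower against 6 M WT and 3 against 6 M DTR, with *Xylt1* and *Csgalnact1* lower in both. These shares stand beside 8.64% and 13.7% of all genes, and with TMM scaling 0 and 2 were lower, with *Ust* higher at 1.51 against 6 M DTR. None of the keratan sulfate enzymes, tyrosine sulfation enzymes or genes of sulfate supply that were compared passed 1.5-fold in any comparison, at 2 of 8, 1 or 2 of 2 and 4 or 5 of 7 genes compared. Over these comparisons 1.25% to 23.4% of all genes passed in a given direction. With TMM scaling *Papss2*, which makes the sulfate donor, was lower in 6 M DTR than in 6 M WT tenocytes at 0.666, and *Slc26a2*, a sulfate transporter, was higher in 21 M B6 than in 6 M DTR epitenon cells at 1.57.

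Among 13 proteases and enhancers that act on family members or procollagen, 10 were compared in tenocytes of 6 M DTR against 6 M WT, with 4 higher and 0 lower, where 5.7% and 5.76% of all genes were. With TMM scaling the same 4 were higher and *Adamts1* was lower at 0.628. *Mmp2*, a gelatinase, had 95.8 and 641 CPM, a ratio of 6.69, and *Mmp14*, which activates it, had 28.9 and 59.7 CPM, a ratio of 2.06. *Mmp13*, a collagenase, had 3.24 and 33.7 CPM, and *Adamts5*, an aggrecanase, 208 and 353 CPM. In 21 M B6 against 6 M WT 3 of 10 were higher, *Mmp2* at 3.11, *Adamts1* at 2.33 and *Adamts4* at 1.93, and *Htra1*, a serine protease with small proteoglycans among its substrates, was lower at 0.490, beside 6.62% of all genes higher and 12.7% lower. Against 6 M DTR 2 of 11 were higher, *Adamts4* at 5.01 and *Adamts1* at 3.45, and 4 were lower, *Mmp13*, *Mmp2*, *Mmp14* and *Htra1*, between 0.380 and 0.487, beside 9.32% and 23.4% of all genes. These tenocyte calls of the aged library were also made with TMM scaling. In epitenon cells *Htra1* was higher at 1.67 and *Adamts4* lower at 0.183 in 6 M DTR against 6 M WT, and in 21 M B6 against 6 M WT *Adamts1* and *Adamts4* were higher at 1.59 and 1.60 and *Mmp3* and *Htra1* lower at 0.260 and 0.627, *Htra1* not with TMM scaling. The shares of all genes were 1.25% and 3.09% in the former comparison and 4.42% and 8.64% in the latter. For 21 M B6 against 6 M DTR in that class 2 were higher, *Adamts4* at 8.70 and *Adamts1* at 2.02, and 3 were lower, *Mmp3* at 0.184, *Htra1* at 0.376 and *Mmp14* at 0.524, beside 6.65% and 13.7% of all genes.

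The collagens that the family binds differed between the depleted and the aged library. In tenocytes of 6 M DTR against 6 M WT 3 of 9 were higher and 0 lower, with *Col3a1* with 856 and 1709 CPM, *Col12a1* at 2.27 and *Col5a1* at 1.58, beside 5.7% and 5.76% of all genes, and *Col5a1* did not pass with TMM scaling. In 21 M B6 against 6 M WT 5 of 10 were lower, with *Col1a1* at 0.397, *Col1a2* at 0.469 and *Col6a3* at 0.286 among them, and *Col14a1* was higher with 3.52 and 23.1 CPM, beside 12.7% of all genes lower and 6.62% higher. With TMM scaling 4 were lower and 2 higher, *Col12a1* being added at 1.56. *Col1a1*, the main chain of tendon collagen I, thus had 6331, 5932 and 2515 CPM where *Dcn* had 33567, 32126 and 31131 CPM in the same cells. Against 6 M DTR 8 of 10 were lower, where 23.4% of all genes were, and *Col14a1* was higher; with TMM scaling 5 were lower. In epitenon cells 0 of 10 passed 1.5-fold in 6 M DTR against 6 M WT, beside 1.25% of all genes higher and 3.09% lower. For 21 M B6, 8 were lower against 6 M WT and 7 against 6 M DTR, *Col3a1* at 0.328 and 0.258, beside 8.64% and 13.7% of all genes lower. With TMM scaling 4 were lower in each of these comparisons.

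Of 9 receptors and ligands that family members are known to bind, 9 were compared in tenocytes. *Tlr2*, a receptor through which soluble biglycan signals, had 438, 139 and 191 CPM, ratios to 6 M WT of 0.318 and 0.436, where 5.76% and 12.7% of all genes were lower. These calls were also made with TMM scaling, which added *Met* as lower in 6 M DTR at 0.633. *Tgfb3* was higher in 6 M DTR at 1.63, where 5.7% of all genes were higher. *Tgfb1* and *Tgfb2* were lower in 21 M B6 at 0.664 each. For 21 M B6 against 6 M DTR 3 were lower, *Tgfb1* at 0.597, *Tgfb3* at 0.601 and *Tgfb2* at 0.634, beside 23.4% of all genes. None of these lower *Tgfb* calls of the aged library passed with TMM scaling, under which *Tlr2* and *Met* were higher in 21 M B6 than in 6 M DTR at 1.73 and 1.77. In epitenon cells *Tlr2* alone of 8 passed 1.5-fold against 6 M WT, at 0.515 for DTR and 0.430 for B6. In these comparisons 3.09% and 8.64% of all genes were lower. Between those libraries 0 passed, beside 6.65% of all genes higher and 13.7% lower. With TMM scaling *Egfr* was higher in 21 M B6 epitenon cells, at 1.58 against each other library, and *Tgfb3* at 1.67 against 6 M DTR.

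The genes with the most similar pattern were ranked by the Pearson correlation of log2(CPM + 1) with each member over 19 sums of a class in a library with at least 50 cells, among 9854 genes. These points share libraries and free RNA, so the values are descriptions. *Dcn* was nearest to *Serpinf1* (0.992), *Comp* (0.987) and *Myoc* (0.976), and *Prelp* to *Comp* (0.975), *Dcn* (0.972) and *Igfbp6*. *Fmod* was nearest to *Mkx* (0.968), *Chad* (0.962) and *Thbs4* (0.960), each a marker of the tenocyte gate. *Aspn* was nearest to *Mfap5* (0.963), *Medag* (0.952) and *Hoxa10* (0.943), and *Podn* to *Cd248* (0.928), *Lrrn4cl* and *C1s1*. *Bgn* was nearest to *Bicc1* (0.977), *Pcolce* and *Cc2d2a* (0.969 each), *Lum* to *Gm15867* (0.964), *Svep1* and *Ackr4*, and *Kera* to *Uts2r* (0.972), *S100a5* and *Cyp26a1*. *Ogn* was nearest to *Itgbl1* (0.945), *Clec11a* and *Hp*, and *Omd* to *Pla2g5* (0.937), *Angptl7* and *Mettl24*. Within the family *Dcn* and *Prelp* gave 0.972 and *Fmod* and *Kera* 0.942.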

How the data were processed

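Droplet single-cell 3′ libraries (Chromium version 3 chemistry) of FDL tendon cells were analysed from the raw UMI counts per gene and barcode that the authors deposited; the file headers name Cell Ranger 6.0.1 and the submitters' processing notes 2.1.1, while no build or annotation is named (not given in the sources used here). Cell annotation by the authors was not used here. The study's filter was applied (1000 to 5000 detected genes, no more than 10% mitochondrial UMIs). A cell was placed in a class when at least 2 of its markers had at least 2 UMIs and the class led the next by 2 markers. UMIs were summed per class and library and scaled to CPM with no other normalization. Genes were compared at 20 CPM or more in 1 library and called past 1.5-fold, with no p-value since each group was 1 library. Ratios carry exact conditional binomial intervals, levels exact Poisson intervals and shares exact Clopper-Pearson intervals. Doublets were called with Scrublet in scanpy 1.11.5, which marked 13, 79 and 1 cells; at 0.156% (WT) and 0.0208% (B6) it is not informative there, so doublets were not removed, and leaving out the called cells was an alternative. The members, markers and gene lists were chosen with earlier results of these data known. The text names all members, list genes of at least 20 CPM past 1.5-fold, and for each member the 3 genes most correlated over classes. Alternatives were other limits on genes and mitochondrial share, and gates with a marker left out, with 3 markers or with 1 UMI for a marker. Further alternatives were other scalings, among them TMM (edgeR 4.0.16 in R 4.3.3), the mean over cells, cells of a single sex, and other folds and level minimums. Chosen after the data had been seen were TMM scaling of the gene lists, a mitochondrial limit of 20% and cells thinned before summing. The tenocyte splits by *Coch* or epitenon markers were also chosen then. A description of the protein sequences was planned and not made. Other steps used Python 3.11.15, numpy 2.4.6, scipy 1.17.1, pandas 2.3.3 and matplotlib 3.10.9, and the steps were tested on simulated data.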

Additional observations from a re-analysis of the deposited data

Results flagged for a closer look

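Among members at 3 or more times the macrophage level in both classes, 5 ratios lay on opposite sides of equality in tenocytes and in epitenon cells in the same comparison, with intervals that did not reach 1. With 1 library per group this difference between classes was not tested. *Aspn* in 21 M B6 against 6 M WT was 2.92 in tenocytes and 0.688 in epitenon cells, a difference of 2.09 on the log2 scale. That epitenon ratio did not pass 1.5-fold, and it was 0.832 with TMM scaling and 0.560 in male cells. *Ogn* in 6 M DTR against 6 M WT was 1.63 and 0.546, a difference of 1.57, and the tenocyte ratio was under 1.5-fold within each sex, as was the epitenon ratio in female cells at 0.765. *Bgn* in 6 M DTR against 6 M WT was 1.29 and 0.891, a difference of 0.53. *Dcn* was 0.927 and 1.03 in 21 M B6 against 6 M WT and 0.969 and 1.13 against 6 M DTR, differences of -0.14 and -0.22, all within 1.5-fold. With TMM scaling both classes were above equality for *Dcn*, at 1.09 and 1.24 against 6 M WT and 1.22 and 1.39 against 6 M DTR, so the opposite sides depend on the scaling. Epitenon cells hold free tenocyte RNA, at a summed tenocyte marker level of 124, 90.7 and 77.0 CPM, and its part in these differences was not tested.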

How the results depend on the processing

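Counts of members past 1.5-fold were recomputed 183 times, of which 171 stayed within 1.5 times the reported count. The ratios and shares themselves were less stable. Of 1559 recomputed ratios of members, 527 were counted as moved. Among shares of cells 207 of 240 were counted as moved, and among shares of UMIs 75 of 120. Each count of members adds higher and lower calls, so it cannot show a change of direction or an exchange of members. Within each sex the tenocyte comparison of 6 M DTR against 6 M WT lost the *Ogn* call, at 1.38 (female) and 1.35 (male). It gained *Kera* at 1.57 and 2.09, so its count stayed as reported. In epitenon cells the count for 21 M B6 against 6 M WT, 2 as reported, was 1 with a gate without *Ccn3*, without *Clec3b*, with TMM scaling or at a 2-fold limit, and 4 in male cells. For 21 M B6 against 6 M DTR in tenocytes, 3 as reported, it was 1 with TMM scaling and 1 at 2-fold. For 6 M DTR against 6 M WT in epitenon cells, 3 as reported, it was 1 in female cells and 0 at 2-fold. For 21 M B6 against 6 M WT in tenocytes, 4 as reported, it was 2 in male cells and 1 at 2-fold, and for 21 M B6 against 6 M DTR in epitenon cells, 4 as reported, it was 2 at 2-fold. In tenocytes *Aspn* passed 1.5-fold against 6 M WT in 30 of 30 alternatives in both libraries, at 2.20 to 13.4 for DTR and 1.84 to 5.14 for B6. *Lum* passed in 30 of 30 in 6 M DTR at 1.82 to 4.27. Tenocytes with 10 or more *Coch* UMIs were not among these alternatives. In them the *Lum* call of 6 M DTR was lost, and the *Aspn* difference between DTR and WT was smaller than the range given. *Ogn* in 6 M DTR passed in 27 of 30, at 1.35 to 1.99, and not in either sex or in cells with *Coch*. *Kera* in 21 M B6 passed in 27 of 29. It did not pass with a mitochondrial limit of 5%, at 1.08, or with cells thinned before summing. Male cells gave no *Kera* ratio to 6 M WT, since both levels (18.6 and 15.8 CPM) were under the minimum of 20 CPM. Female cells gave 2.70, so a rise in male cells is not shown. The cause of these changes was not tested. No paired analysis was possible because each group was 1 library, and no replicate could be left out. The 43 mural cells of 21 M B6, members under 20 CPM and free RNA limit what the depth can show outside tenocytes and epitenon cells.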
